A study of Homo sapiens with 12 samples.

Results

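The 8 genes described here are the inhibitor of DNA binding factors ID1, ID2, ID3 and ID4 and the feedback regulators SMAD6, SMAD7, BAMBI and SKIL of the BMP and TGF-beta pathways. They were chosen by gene symbol from the 40929 symbols counted in every library, at a time when the rise of ID genes in lower glucose was already known from these libraries. All 8 symbols were found, and 7 of them were among the 15104 genes with enough counts to be tested, ID4 being the exception. Because the earlier values led to the choice, the levels and differences of the 8 genes are given as a description, without p-values, and their counts support nothing by themselves.

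The cells were MDA-MB-231, an established human line of triple-negative breast cancer, labelled wild type and epithelial and grown in RPMI with 10% fetal bovine serum. Total RNA was sequenced from 12 libraries, 3 in each of 4 groups, after 48 hours in the stated medium. The NG group had 10 mM glucose and no drug, and the CAR group had 10 mM glucose with 25 µM cariporide. The LG group had 5 mM glucose and no drug, and the LGCAR group had 5 mM glucose with 25 µM cariporide. Cariporide is an inhibitor of the sodium-proton exchanger NHE1, which moves protons out of the cell. The groups therefore allow the effect of lower glucose to be measured without the drug (LG against NG) and with it (LGCAR against CAR), and these comparisons share no library. All groups come from 1 cell line. The labels do not say whether replicates were separate cultures, so p-values measure the spread between these samples, which may be technical.

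BMP and TGF-beta ligands bind paired serine/threonine kinase receptors, which phosphorylate receptor SMADs that enter the nucleus with SMAD4. BMP receptors act mainly through SMAD1, SMAD5 and SMAD9, and TGF-beta and activin receptors through SMAD2 and SMAD3. ID genes are classical direct targets of the BMP branch. Their proteins hold a helix-loop-helix without a DNA-binding region, pair with E proteins and keep them from binding DNA. SMAD6 and SMAD7 are inhibitory SMADs induced by the same signals, BAMBI is a decoy receptor without a kinase, and SKIL (SnoN) is a co-repressor that binds SMADs in the nucleus.

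Library totals ran from 18069004 to 24837409 counts. Ribosomal RNA genes took 7.10% to 11.5% of the counts, with the highest shares in NG replicate 1 and LGCAR replicate 3. All 3 LGCAR libraries had 9.32% or more, and all 3 CAR libraries 8.53% or less. Levels are in CPM, read counts scaled to a common library size with TMM, a correction for library composition. Of 12 markers of this kind of line 10 were tested, with VIM (vimentin) at 1720 CPM, CD44 at 689 CPM and EGFR at 388 CPM. The hormone receptors ESR1 and PGR were at 0.0404 and 0 CPM, respectively. Others on this list were AXL at 823 CPM, ERBB2 at 59.4 CPM, EPCAM at 11.7 CPM and CDH1 at 1.54 CPM. The keratins KRT8, KRT18 and KRT19 were at 467, 378 and 294 CPM. The list mixes genes typical of the line with hormone receptors that triple-negative cells lack, so the number tested measures no match. Of the lists for other cell types, 4 of 6 fibroblast, 2 of 6 immune, 2 of 4 endothelial and 0 of 3 adipocyte markers were tested. The immune list was led by CD68 (61.7 CPM) and CD14 (2.33 CPM), with PTPRC at 0.143 CPM and CD3E at 0. Its summed level was 61.2 to 62.8 CPM in NG, 56.2 to 63.6 in CAR, 68.7 to 75.6 in LG and 61.9 to 65.8 CPM in LGCAR. The fibroblast list was led by PDGFRB (10.8 CPM) and COL1A1 (8.03 CPM), with DCN and PDGFRA at 0.00697 and 0.0406 CPM. Its sum was 23.5 to 27.7 CPM in NG, 25.1 to 26.5 in CAR, 27.0 to 29.8 in LG and 28.98 to 29.7 CPM in LGCAR. Endothelial markers summed to 4.51 to 5.45, 4.51 to 4.55, 4.76 to 5.73 and 5.16 to 6.34 CPM in the same order, with VWF and CDH5 at 0.113 and 0.0232 CPM. Adipocyte markers summed to at most 0.383 CPM in any library, with LEP at 0. The immune sum in LG and the fibroblast sum in LGCAR thus lay above their NG and CAR levels, and the part of these markers in the results below was not tested. In bulk RNA, fewer cells of a type and less RNA per cell cannot be told apart.

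The 250 bases before the start of ID1, ID3 and SMAD6 are shown because these 3 genes were higher in both groups at 5 mM glucose, and because SMAD-binding elements are known from genes of this kind. They come from RefSeq on GRCh38.p14 and read 5′ to 3′ on the strand of the gene. The ID1 window is chr20:31605039-31605288 on the plus strand, that of ID3 is chr1:23559502-23559751 on the minus strand and that of SMAD6 is chr15:66701986-66702235 on the plus strand. Capitals mark the SMAD elements GTCTAGAC, GGCGCC and GTCTG, searched on both strands.
ID1: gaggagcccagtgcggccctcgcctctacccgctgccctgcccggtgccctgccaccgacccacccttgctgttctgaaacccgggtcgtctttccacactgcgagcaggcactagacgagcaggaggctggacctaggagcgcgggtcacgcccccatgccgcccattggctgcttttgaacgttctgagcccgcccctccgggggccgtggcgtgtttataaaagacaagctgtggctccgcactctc
ID3: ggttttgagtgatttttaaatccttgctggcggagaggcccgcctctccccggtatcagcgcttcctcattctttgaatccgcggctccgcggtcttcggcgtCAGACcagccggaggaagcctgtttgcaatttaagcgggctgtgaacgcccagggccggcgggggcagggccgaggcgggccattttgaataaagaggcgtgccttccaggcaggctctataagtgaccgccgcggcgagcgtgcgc
SMAD6: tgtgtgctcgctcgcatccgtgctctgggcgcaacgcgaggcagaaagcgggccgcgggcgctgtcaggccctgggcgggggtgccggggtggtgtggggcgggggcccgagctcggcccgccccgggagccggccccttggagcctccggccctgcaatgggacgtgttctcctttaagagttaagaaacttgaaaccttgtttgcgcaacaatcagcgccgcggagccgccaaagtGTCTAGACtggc
The SMAD6 window held the palindromic element GTCTAGAC, 12 bases before the start, which 64 of 35116 RefSeq promoters (0.182%) held in the same 250 bases. This motif was added to the search after the windows had been seen, so its rarity supports nothing by itself. The ID3 window held 1 SMAD box, written there as CAGAC, the reverse complement of GTCTG, 147 bases before the start. The SMAD box stood in 38% of promoters and in 4 of the 8 genes, namely ID3, ID4, BAMBI and SKIL. The GC-rich element GGCGCC, found in 16.4% of promoters, occurred 3 times before BAMBI and 1 time before SKIL. ID1 held none of the 3 elements in this window. In all, 7 motifs were searched, some of them, GTCTAGAC included, chosen after the sequences had been seen. The E-box CACGTG, in 6.34% of promoters, was in none of the 8 windows. The cyclic AMP element TGACGTCA, in 1.65%, was in that of SKIL, CCAAT, in 32%, was in 4, and the GC box GGGCGG, in 42.6%, was in 6. Each of the 3 sequences shown held at most 1 SMAD element, so none overlapped another. The RefSeq window of SMAD7, counted among the 8, ends at 48943057 and lies inside the gene, before an internal start, so these counts do not cover the outer start of SMAD7. GC content was 66%, 62% and 68% for ID1, ID3 and SMAD6, and its median over all promoters was 58%.

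ID1 and ID3 were higher in every library at 5 mM glucose than in any library at 10 mM, with and without cariporide. ID1, on chromosome 20 at 31605289 to 31606510, had the highest level of the 8 genes per length, 15.7 CPM per kb of exon sequence over all libraries. Its level was 15.1, 17.8 and 14.7 CPM in NG and 17.2, 16.4 and 14.6 CPM in CAR. In LG it was 21.3, 24.5 and 24.6 CPM, and in LGCAR it was 21.3, 20.7 and 24.1 CPM. The group means were 15.9 ± 1.72 in NG, 16.1 ± 1.33 in CAR, 23.5 ± 1.92 in LG and 22.0 ± 1.80 CPM in LGCAR (SD, n = 3 each). The log2 fold change of ID1 was 0.56 (SE 0.0920) in LG against NG and 0.46 (SE 0.0927) in LGCAR against CAR.

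ID3, on chromosome 1 at 23557926 to 23559501, is a relative of ID1 that pairs with the same E proteins. It lay at 5.31, 4.93 and 5.02 CPM in NG and at 4.08, 5.03 and 4.22 CPM in CAR. It lay at 7.57, 8.57 and 9.28 CPM in LG and at 6.14, 8.48 and 6.81 CPM in LGCAR. The groups at 5 mM stood above those at 10 mM without overlap, and LGCAR and LG overlapped each other. The means were 5.09 ± 0.198, 4.45 ± 0.511, 8.47 ± 0.856 and 7.14 ± 1.20 CPM in NG, CAR, LG and LGCAR (SD, n = 3 each). The log2 fold change of ID3 was 0.73 (SE 0.129) in LG against NG and 0.68 (SE 0.134) in LGCAR against CAR.

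ID2 and ID4 were near the lower limit of counting. ID2 (chromosome 2 at 8682056 to 8684461), the member of the family known for binding the retinoblastoma protein, had 9, 4 and 4 reads in NG, 7, 7 and 4 in CAR, 15, 11 and 8 in LG and 10, 10 and 8 in LGCAR. The sums were 17 and 18 reads at 10 mM glucose and 34 and 28 at 5 mM, so the direction of ID2 was that of ID1 and ID3. Its log2 fold change was 0.92 (SE 0.410) in LG against NG and 0.97 (SE 0.418) in LGCAR against CAR, and neither passed the threshold over all genes. The first of these was 1.42 without NG replicate 1, the library with 9 reads, and the second was 0.47 (SE 0.580) with the ribosomal RNA share as a covariate, an alternative chosen after the data had been seen. ID4 (chromosome 6 at 19837370 to 19842197), the remaining member of the family, had sums of 18, 19, 19 and 18 reads in NG, CAR, LG and LGCAR. In LG its 19 reads were 2, 3 and 14 in the 3 libraries, a wider spread than the 3 to 10 reads seen in all libraries of the other groups. No difference in ID4 was detectable at this depth.

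SMAD6, on chromosome 15 at 66702236 to 66782849, inhibits mainly the BMP branch. It was the feedback gene with both groups at 5 mM glucose above both at 10 mM, as for ID1 and ID3. Its level was 3.41, 4.50 and 4.55 CPM in NG and 3.61, 3.82 and 3.98 CPM in CAR. In LG it was 5.69, 6.003 and 5.89 CPM, and in LGCAR it was 6.29, 5.78 and 6.60 CPM. All 6 libraries at 5 mM thus lay above all 6 at 10 mM. The means were 4.15 ± 0.641, 3.80 ± 0.183, 5.86 ± 0.158 and 6.22 ± 0.410 CPM in NG, CAR, LG and LGCAR (SD, n = 3 each). The log2 fold change was 0.49 (SE 0.123) in LG against NG, where SMAD6 ranked 271 by p and missed the list of 261 called genes. In LGCAR against CAR it was 0.71 (SE 0.124), with rank 45, and SMAD6 was called.

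**Figure D1:**
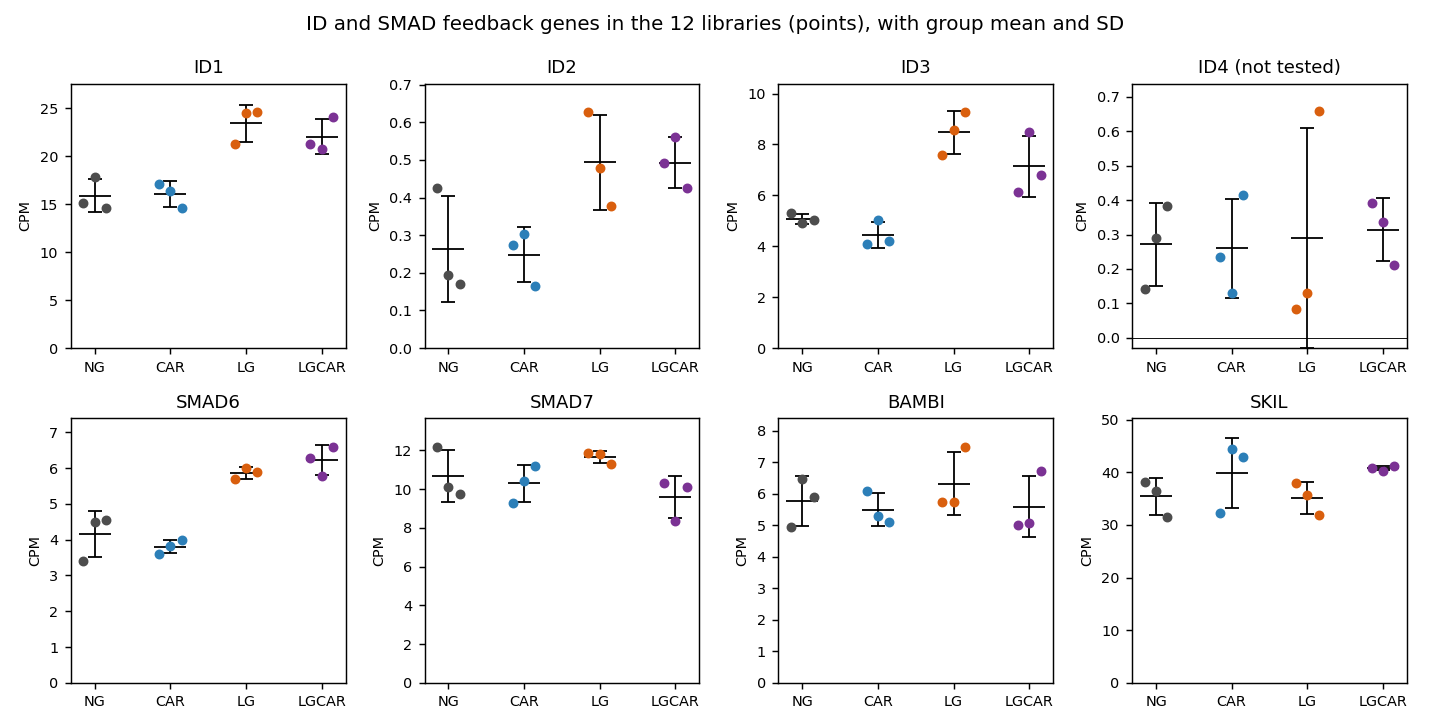
Level of each of the 8 genes in CPM (vertical axis) in the 3 libraries of each group (points), with the group mean (bar) and SD (whiskers). ID1, ID3 and SMAD6 are higher in all LG and LGCAR libraries than in any NG or CAR library, and ID4, with 18 to 19 reads a group, shows no such order.

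SMAD7, BAMBI and SKIL did not follow this pattern. SMAD7 (chromosome 18 at 48919853 to 48950965), which inhibits both branches of the pathway, had means of 10.7 ± 1.32, 10.3 ± 0.946, 11.7 ± 0.311 and 9.60 ± 1.07 CPM in NG, CAR, LG and LGCAR (SD, n = 3 each). Its log2 fold change with lower glucose was 0.13 (SE 0.105) without cariporide and -0.10 (SE 0.108) with it. BAMBI (chromosome 10 at 28677521 to 28682932) had means of 5.77 ± 0.783, 5.49 ± 0.524, 6.32 ± 1.01 and 5.59 ± 0.964 CPM. Its groups overlapped in all 5 comparisons, and its log2 fold changes ran from -0.17 to 0.13. SKIL (chromosome 3 at 170357715 to 170396849) had means of 35.4 ± 3.45, 39.8 ± 6.66, 35.1 ± 3.09 and 40.7 ± 0.400 CPM. It differed by -0.01 (SE 0.110) in LG against NG and by 0.03 (SE 0.108) in LGCAR against CAR on the log2 scale. Per kb of exon sequence SKIL had the second level of the 8 genes, 4.85 CPM, followed by ID3 with 3.50, BAMBI with 2.50, SMAD7 with 2.10 and SMAD6 with 0.585, and ID2 and ID4 had 0.170 and 0.121. No exon of the 8 genes was shared with another annotated gene except 1.72% of ID2, on the opposite strand.

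In LG against NG 2 of the 7 tested genes were called, ID1 and ID3, where 1.73% of all genes were called. They ranked 40 and 60 by p among the 15104 genes. Since the rise of ID genes was known when the genes were chosen, ranks and calls here are a description. In LGCAR against CAR, where 1.65% of all genes were called, 3 were called, SMAD6, ID3 and ID1, with ranks 45, 83 and 100. In LGCAR against NG, where 8.75% of all genes were called, the same 3 were called, with log2 fold changes of 0.48 for ID1 (SE 0.0938), 0.49 for ID3 (SE 0.133) and 0.58 for SMAD6 (SE 0.124). All calls were toward higher levels. The median log2 fold change of the 7 genes was 0.49 in LG against NG, 0.46 in LGCAR against CAR and 0.48 in LGCAR against NG. That of all genes was 0.01 in each. With 7 genes the median is the value of 1 gene, SMAD6 in LG against NG and ID1 in the others. Single values ran from -0.01 to 0.92, -0.10 to 0.97 and -0.15 to 0.90 in that order, so the medians show no shift shared by all 7. As known values led to the choice, the medians support nothing by themselves. Groups did not overlap for 3 of the 7 in LG against NG (ID1, ID3 and SMAD6), all higher, where 9.86% of all genes were higher without overlap. In LGCAR against CAR they did not overlap for 4 (the same 3 and ID2), where 13.4% of all genes were higher in that way. The comparisons of LG and of LGCAR with NG share the NG libraries.

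The calls differed in how far they rested on single libraries. ID1 and ID3 were called in LG against NG under all 17 alternatives tried, which included leaving out each NG and each LG library in turn. These refits use the libraries that led to the choice of the genes, so kept calls add no support. In LGCAR against CAR, ID1 lost its call without CAR replicate 3 and without each of LGCAR replicates 1, 2 and 3. ID3 lost its call there without CAR replicate 3, LGCAR replicate 2 or LGCAR replicate 3, and SMAD6 without LGCAR replicate 1 or 3. With the ribosomal RNA share as a covariate, none of the 3 was called in that comparison, in which that share was higher in all 3 LGCAR libraries than in any CAR library. Their log2 fold changes in that fit were 0.42 for ID1 (SE 0.125), 0.65 for ID3 (SE 0.182) and 0.82 for SMAD6 (SE 0.172), beside 0.46, 0.68 and 0.71 without the covariate. Over all alternatives the lowest values in that comparison were 0.38 for ID1, 0.54 for ID3 and 0.66 for SMAD6. Without NG replicate 1 and LGCAR replicate 3 together, ID1 and ID3 were still called in LG against NG, SMAD6 alone was called in LGCAR against CAR and none of the 7 in LGCAR against NG. In LGCAR against NG the count of called genes among the 7 fell from 3 to 0 without LGCAR replicate 3, and to 1 without LGCAR replicate 1 or NG replicate 3.

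**Figure D2:**
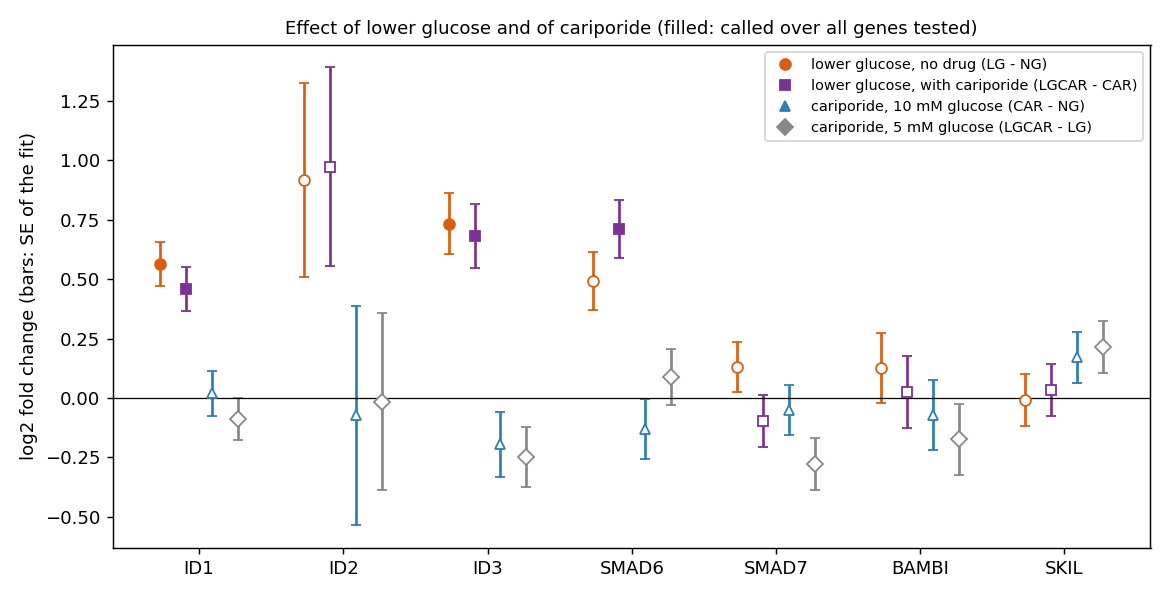
Log2 fold change (vertical axis, with the SE of the fit) of the 7 tested genes with lower glucose (circles and squares) and with cariporide (triangles and diamonds), filled where the gene was called. ID1 and ID3 are filled in both comparisons of glucose and SMAD6 in the one with cariporide, and no gene is filled in a comparison of the drug.

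Cariporide moved none of the 7 genes past the threshold at either glucose level. In CAR against NG 0% of all genes were called, none of the 7 among them, and edgeR's test gave 684 genes an unadjusted p under 0.05, none of the 7 among them. With DESeq2 the comparison had 2 called genes. The log2 fold changes of the 7 genes there ran from -0.20 for ID3 (SE 0.137) to 0.17 for SKIL (SE 0.108), and the groups overlapped for all 7. In LGCAR against LG 0.00662% of all genes were called, which is 1 gene, and none of the 7. At an unadjusted p under 0.05 edgeR had 1801 genes there, 1 of the 7 among them, and DESeq2 called 20 genes. SMAD7 was lower in LGCAR than in LG without overlap, at 10.3, 8.37 and 10.1 CPM against 11.9, 11.8 and 11.3, a log2 fold change of -0.28 (SE 0.108) that was not called. SKIL was higher without overlap, at 40.8, 40.3 and 41.1 CPM against 37.9, 35.6 and 31.8, with a log2 fold change of 0.21 (SE 0.110) that was not called either. Groups without overlap were 21.3% of all genes in that comparison.

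The interaction asks whether the change with cariporide was different at 5 mM glucose than at 10 mM, which is the same as asking whether the change with glucose differed with the drug. It called 0.00662% of all genes, 1 gene, and none of the 7, of which none had an unadjusted p under 0.05 in edgeR, against 473 of all genes. DESeq2 called 5 genes. The difference on the log2 scale was -0.11 (SE 0.131) for ID1, -0.05 (SE 0.186) for ID3 and 0.22 (SE 0.175) for SMAD6. SMAD6 was called in one comparison of glucose and not in the other, and the difference between them was not called.

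The other genes of the pathway were taken from 8 lists of ligands, receptors, SMADs, inhibitors, targets and partners, 123 genes in all, of which 90 were tested and none is among the 8. With lower glucose the BMP target ATOH8 rose, and the TGF-beta target KLF10 and the brake PMEPA1 fell. Over all lists 5 genes rose and 4 fell in LG against NG (10% of those tested), where 1.73% of all genes were called. In LGCAR against CAR 3 rose and 6 fell (10%), where 1.65% of all genes were called. In LGCAR against NG 7 rose and 9 fell (17.8%), where 8.75% of all genes were called. The lists were written with earlier results of these data known, so these shares are a description. None was called in CAR against NG, in LGCAR against LG or in the interaction, where 4, 21 and 7 had an unadjusted p under 0.05 in edgeR. With DESeq2, 1 of them was called in LGCAR against LG. The median log2 fold change over the 90 genes was 0.03 in LG against NG and 0.04 in LGCAR against CAR. The 9 genes called in LG against NG and the 9 called in LGCAR against CAR had 6 in common, 66.7% of each, all with the same direction. Among them ATOH8, TGFBR3 and TIMP3 were higher and PMEPA1 and KLF10 lower at 5 mM. All 6 were also called in both comparisons without NG replicate 1 and LGCAR replicate 3 together. For the most abundant gene of each list the log2 fold changes in CAR against NG ran from -0.10 (FKBP1A) to 0.08 (RUNX2), and in LGCAR against LG from -0.11 (FKBP1A) to 0.18 (THBS1).

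Among the BMP targets, ATOH8, a helix-loop-helix transcription factor, showed the pattern of ID1 and ID3 with a larger fold. That fold starts from a low level, since ATOH8 had 491 reads over all 12 libraries. Its level was 0.711, 1.40 and 1.06 CPM in NG and 0.824, 1.17 and 1.16 CPM in CAR. It was 2.72, 2.91 and 2.87 CPM in LG and 2.60, 2.75 and 2.71 CPM in LGCAR. All 6 libraries at 5 mM stood clear of those at 10 mM. ATOH8 rose by 1.42 on the log2 scale in LG against NG (SE 0.209, adjusted p = 0.00286, edgeR), a 2.67-fold change. It rose by 1.35 in LGCAR against CAR (SE 0.211, adjusted p = 0.00462) and by 1.34 in LGCAR against NG (SE 0.215, adjusted p = 0.00350). The second of these was not called with the ribosomal RNA share as a covariate (adjusted p = 0.0763), where its value was 1.43 (SE 0.299). It was the only one of 7 tested BMP targets called in LG against NG and in LGCAR against CAR. RUNX2, a regulator of bone formation, rose by 0.30 in LGCAR against NG (adjusted p = 0.0279), a call lost without any 1 of LGCAR replicates 1, 2 and 3 or NG replicates 2 and 3. Its values were 0.22 in both LG against NG and LGCAR against CAR, with adjusted p = 0.164 and 0.148.

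Among the TGF-beta and SMAD3 targets, 2 of 18 rose and 2 fell in LG against NG. KLF10, an early TGF-beta response factor, was at 55.2, 55.4 and 54.8 CPM in NG and at 55.2, 52.9 and 52.4 CPM in CAR. It was at 38.5, 38.2 and 40.7 CPM in LG and at 33.5, 32.1 and 33.8 CPM in LGCAR. It fell by 0.49 on the log2 scale in LG against NG (SE 0.0501, adjusted p = 9.27e-05) and by 0.69 in LGCAR against CAR (SE 0.0511, adjusted p = 1.83e-06). No library at 5 mM reached the level of one at 10 mM. TIMP3, an inhibitor of metalloproteinases, went the other way: it rose by 0.34 (SE 0.0467, adjusted p = 0.00161) and by 0.37 (SE 0.0468, adjusted p = 0.00108). KLF10 and TIMP3 were called under all 17 alternatives in both comparisons.

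Other target calls were less stable. SNAI2, a repressor of epithelial genes that was named after its value was seen, rose by 0.30 in LG against NG (adjusted p = 0.0206). It lost that call without NG replicate 1, NG replicate 3, LG replicate 1 or LG replicate 3. In LGCAR against CAR SNAI2 was not called, at 34.5, 36.0 and 34.0 CPM against 33.3, 32.4 and 32.2. CDKN1A, the cell cycle inhibitor p21, also named after its value was seen, fell by 0.28 in LGCAR against CAR (adjusted p = 0.0319). Its call was kept without CAR replicate 2 and lost without each of the other 5 libraries. The call was also lost with the ribosomal RNA share as a covariate (-0.18, SE 0.0728, adjusted p = 0.484). THBS1, the most abundant gene of the list, differed by 0.07 (SE 0.140, adjusted p = 0.870) in LG against NG and by 0.17 (SE 0.140, adjusted p = 0.546) in LGCAR against CAR. The list's median log2 fold change was 0.07 in LG against NG and -0.04 in LGCAR against CAR, so its members did not share 1 direction.

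**Figure D3:**
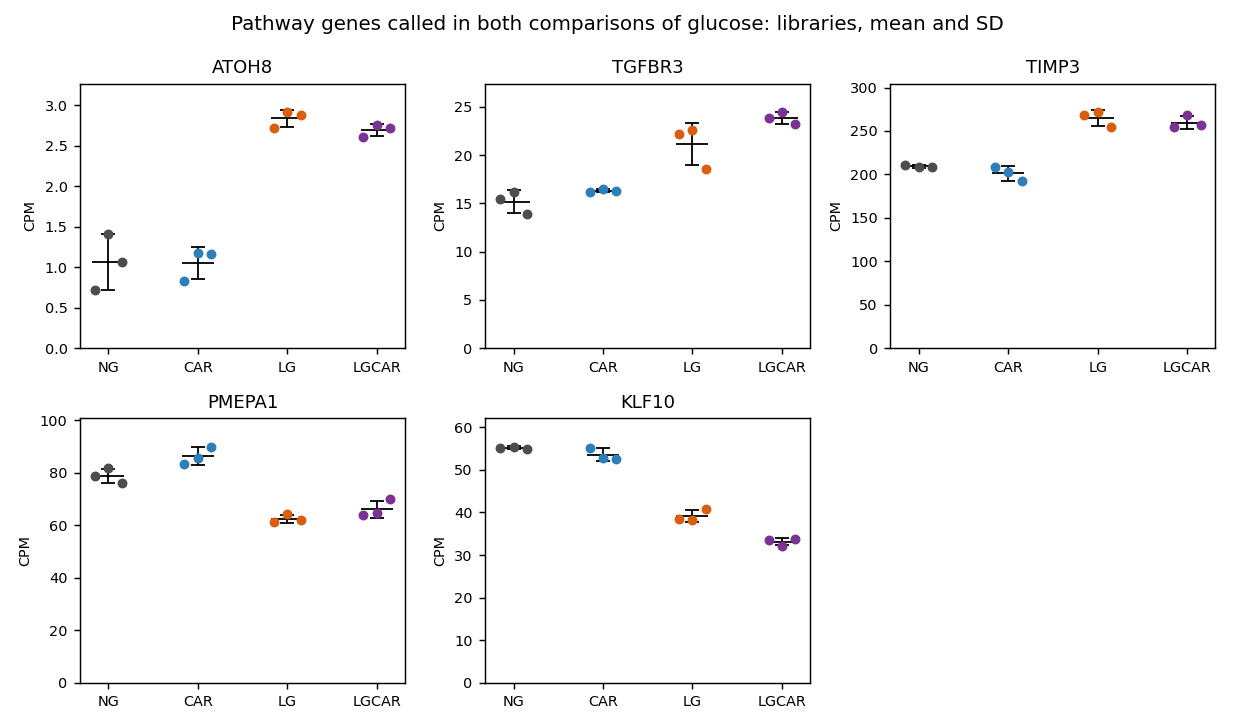
Level in CPM (vertical axis) of 5 pathway genes called in both comparisons of glucose, in the 3 libraries of each group (points), with mean and SD. In each panel the LG and LGCAR libraries stand on 1 side of all NG and CAR libraries: above for ATOH8, TGFBR3 and TIMP3, below for PMEPA1 and KLF10.

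Of the 13 tested ligands none was called in LG against NG or LGCAR against CAR. TGFB2, the most abundant ligand of the list by CPM, differed by 0.11 (SE 0.0618, adjusted p = 0.438) and by 0.18 (SE 0.0619, adjusted p = 0.138), and 26.6% of its exon length is shared with another gene on the same strand. INHBA, the activin A subunit, fell by 0.31 in LGCAR against NG (adjusted p = 0.0184), a call lost without LGCAR replicate 2 or 3 or NG replicate 2 or 3. Among 12 receptors, the co-receptor TGFBR3 (betaglycan) rose in all 3 comparisons of 5 with 10 mM glucose. It was at 15.5, 16.2 and 13.9 CPM in NG, 16.2, 16.5 and 16.3 in CAR, 22.2, 22.7 and 18.6 in LG and 23.9, 24.5 and 23.2 CPM in LGCAR. Its log2 fold change was 0.48 (SE 0.0804, adjusted p = 0.00516) in LG against NG and 0.55 (SE 0.0794, adjusted p = 0.00332) in LGCAR against CAR, where the call was lost with the ribosomal RNA share as a covariate (0.45, SE 0.103, adjusted p = 0.104). BMPR1A, a BMP receptor kinase, rose by 0.26 in LGCAR against NG (adjusted p = 0.0479) and was called in 6 of 17 alternatives. The kinase TGFBR2, the most abundant receptor, differed by 0.01 (SE 0.0478, adjusted p = 0.959) in LG against NG.

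None of the 6 receptor and common SMADs was called in LG against NG or in LGCAR against CAR. SMAD2, which carries TGF-beta and activin signals, rose by 0.32 in LGCAR against NG (adjusted p = 0.0145), and that call was lost without each LGCAR library and without NG replicate 3. It differed by 0.24 (adjusted p = 0.0901) in LG against NG and by 0.26 (adjusted p = 0.0688) in LGCAR against CAR. SMAD3 differed by -0.06 (SE 0.0514, adjusted p = 0.668) in LG against NG and by -0.003 (SE 0.0514, adjusted p = 0.984) in LGCAR against CAR. Among 9 extracellular antagonists, FSTL3, a follistatin-like binder of activin, fell by 0.26 in LGCAR against CAR (adjusted p = 0.0427), with the call kept in 8 of 17 alternatives. FSTL3 and BMPER, a secreted modulator of BMPs, fell by 0.27 and 0.34 in LGCAR against NG (adjusted p = 0.0193 and 0.0355). Both lost that call without LGCAR replicates 1 or 2 or NG replicates 2 or 3. TWSG1, another BMP binder, differed by 0.08 (SE 0.0482, adjusted p = 0.447) in LG against NG.

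Among 13 tested intracellular brakes beyond the 8 genes, PMEPA1, a TGF-beta-induced protein that binds SMAD2 and SMAD3, was the one called in both comparisons of glucose. It was at 78.7, 81.6 and 76.1 CPM in NG, 83.4, 85.7 and 89.8 in CAR, 61.1, 64.1 and 62.0 in LG and 63.8, 64.6 and 69.8 CPM in LGCAR. PMEPA1 fell by 0.34 (SE 0.0533, adjusted p = 0.00426) and by 0.39 (SE 0.0533, adjusted p = 0.00252), and 6.1% of its exon length is shared with a gene on the opposite strand. Its fall of 0.25 in LGCAR against NG (adjusted p = 0.0131) was not called without LGCAR replicate 1 or 2 or NG replicate 2. PPM1A, a phosphatase of receptor SMADs, rose by 0.20 in LGCAR against NG (adjusted p = 0.0487) and was called in 4 of 17 alternatives. FKBP1A, the most abundant brake, differed by -0.02 (SE 0.0662, adjusted p = 0.906) in LG against NG.

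The last list held helix-loop-helix factors and ETS factors, the proteins that ID proteins pair with or their relatives, with 12 tested. BHLHA15 (MIST1), a factor of secretory cells, fell by 0.60 in LG against NG (SE 0.0940, adjusted p = 0.00422) and by 0.53 in LGCAR against NG (adjusted p = 0.00580). Its call in LGCAR against NG was lost when NG replicate 1 and LGCAR replicate 3 were left out together (adjusted p = 0.0599). In LGCAR against CAR the value of BHLHA15 was -0.35 (adjusted p = 0.0808). ETS2 rose by 0.28 in LG against NG (SE 0.0503, adjusted p = 0.00895) and was at 0.11 (adjusted p = 0.282) in LGCAR against CAR. Its call was lost when NG replicate 1 and LGCAR replicate 3 were left out together (adjusted p = 0.0595). HES1, a Notch target and repressor, fell by 0.75 in LGCAR against CAR (SE 0.135, adjusted p = 0.0122) and by 0.73 in LGCAR against NG (SE 0.136, adjusted p = 0.00840). Its call against CAR was lost without any 1 of the 3 LGCAR libraries, and that against NG without LGCAR replicate 1. Both were lost without NG replicate 1 and LGCAR replicate 3 together. The call against CAR was also lost with the ribosomal RNA share as a covariate (-0.64, SE 0.181, adjusted p = 0.221). In LG against NG the value of HES1 was -0.19 (adjusted p = 0.531), and the interaction was not called for it, nor for BHLHA15 or ETS2. ETS1, the most abundant gene of the list, differed by 0.14 (SE 0.0583, adjusted p = 0.267) in LG against NG.

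**Figure D4:**
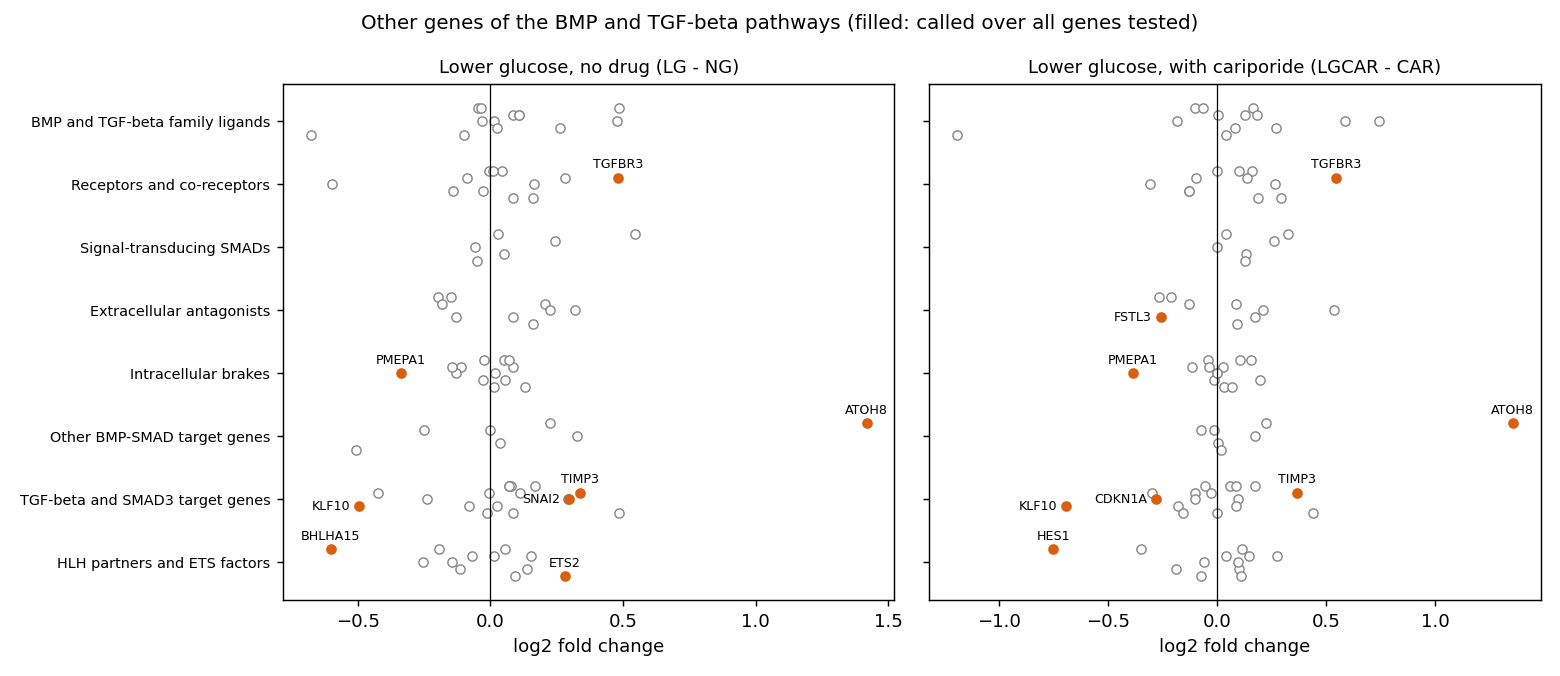
Log2 fold change (horizontal axis) of 89 of the 90 tested genes of 8 pathway lists (rows) with lower glucose, without the drug (left) and with it (right), each point a gene and filled where called over all genes tested. ATOH8 lies at 1.42 and 1.35, away from the other called genes, and most genes of every list are near 0.

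Across the 12 libraries the genes most alike ID1 out of 10814 candidates averaging 5 CPM or more were CNKSR3 (Pearson r = 0.94) and GSN (r = 0.94). Those most alike ID3 were BDNF (r = 0.95) and LINC02009 (r = 0.94), and GALNT2 was among those most alike SMAD6 (r = 0.93). For SKIL they were NUP214 (r = 0.98) and MTF1 (r = 0.97), for SMAD7 SLC15A4 (r = 0.89) and SREK1IP1 (r = 0.88), and for BAMBI PPCS (r = 0.93) and YJU2 (r = 0.88). ID2, at its low counts, was most alike ZFYVE28 (r = 0.94) and FHIP2A (r = 0.92). These are descriptions over 12 libraries that share groups and depth. Between the 3 genes that were higher at 5 mM glucose, r across the 12 libraries was 0.85 for ID1 with ID3, 0.88 for ID1 with SMAD6 and 0.80 for ID3 with SMAD6. These pairs share the step between glucose levels by which they were picked. Other pairs of the 7 tested genes ran from -0.59 (BAMBI with SKIL) to 0.75 (ID2 with ID3). After each group's mean was taken out, the values of the 3 pairs were 0.05, 0.27 and -0.27, so their likeness was between groups. Those of the other pairs then ran from -0.86 (ID2 with SMAD6) to 0.72 (ID1 with BAMBI).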

How the data were processed

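Stranded libraries were prepared from the total RNA of 12 samples (NEBNext Ultra II Directional, per the labels' protocols). The authors deposited whole-number counts per gene symbol, 1 file for each library. GRCh38 and the tools GATK, Salmon, STAR and fastp are named per the submitters' processing notes. Which tool counted, with or without strand, was not given in the sources used here.

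CPM and log2 fold changes were derived here from the deposited counts. Genes passing edgeR's filterByExpr (15104 of 40929) were tested by robust quasi-likelihood F-tests (edgeR 4.0.16, R 4.3.3). TMM scaling was used, with all 12 libraries and 1 mean for each group. P-values were adjusted over all tested genes (Benjamini-Hochberg), and genes under 0.05 were called. The biological coefficient of variation was 6.94%. The code was tested on simulated data. No 2 replicates agreed within sampling noise (chi-square per degree of freedom 2.82 to 24.6).

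The 8 genes, the lists and the rules were chosen with earlier results of these data known. Named were the 8 genes, in each list and comparison up to 3 called genes with the smallest p or else the most abundant one, and the 2 genes most alike each tested gene. Results for some genes that these rules name are not reported here, while counts include them. Alternatives were other scalings and filters, DESeq2 1.42.0, limma-voom (limma 3.58.1), a replicate block, fewer groups or libraries, and the ribosomal RNA genes or their share. Lengths and overlaps came from GENCODE release 29 on GRCh38, and coordinates and promoters from RefSeq on GRCh38.p14, in which all 8 symbols matched. Figures were drawn with matplotlib 3.10.9 in Python 3.11.15.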

Additional observations from a re-analysis of the deposited data

How the results depend on the processing

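No direction of a called result reversed. The direction and the call of ID1 and ID3 in LG vs NG held under all 17 alternatives. SMAD6 was called there in none of 16, and SKIL was called in LGCAR vs NG when the fit held the groups compared alone. As refits of the libraries that led to the choice of the genes, these results add no support for that choice. Leaving out NG replicate 1 and LGCAR replicate 3, which had the highest ribosomal RNA shares, gave 2 called genes in CAR vs NG, 87 in LG vs NG, 263 in LGCAR vs NG, 2 in LGCAR vs LG, 55 in LGCAR vs CAR and 2 in the interaction. It left 0 of the 7 genes called in LGCAR vs NG and 1 in LGCAR vs CAR, with 7 pathway genes in LGCAR vs NG. The ribosomal RNA share as a covariate, added after the data were seen, gave 586 called genes in LG vs NG, 18 in LGCAR vs CAR and 0 in the interaction, with 0 of the 7 genes and 4 pathway genes in LGCAR vs CAR. DESeq2 called 2 genes in CAR vs NG, 20 in LGCAR vs LG, 419 in LGCAR vs CAR and 5 in the interaction, and 1 pathway gene in LGCAR vs LG. Without the filter there were 15 called genes in LGCAR vs LG, 391 in LGCAR vs CAR and 2 in the interaction, and 14 pathway genes in LG vs NG and 1 in LGCAR vs LG. With the groups compared alone there were 118 called genes in LG vs NG and 3542, of them 30 pathway genes, in LGCAR vs NG. The replicate block called 147 genes in LG vs NG, 682 in LGCAR vs NG and 135 in LGCAR vs CAR. Replicate numbers did not pair the samples: of 18 same-numbered pairs 2 had deviations correlated above 0.1 (range -0.11 to 0.14), and 7 correlated best with their own number. With 1 library of the groups compared left out, called genes ranged from 0 to 2 in CAR vs NG, 83 to 364 in LG vs NG, 136 to 1544 in LGCAR vs NG, 1 to 3 in LGCAR vs LG, 51 to 188 in LGCAR vs CAR and 1 to 3 in the interaction. LG vs NG was lowest without NG replicate 3, LGCAR vs NG without NG replicate 3 and LGCAR vs CAR without LGCAR replicate 2. Of the 7 genes, 0 to 3 were called in LGCAR vs NG and 0 to 3 in LGCAR vs CAR, both lowest without LGCAR replicate 3. Pathway calls ranged from 7 to 17 in LGCAR vs NG, lowest without LGCAR replicate 1 or 2. With library totals alone the share of calls toward higher levels was 69.5% in place of 57.9% in LG vs NG and 26.8% in place of 59% in LGCAR vs CAR, where it was 39.6% without the filter. Motif counts before the start and in 300 bases differed for the CCAAT box, in 4 and in 5 of the 8 genes. Depth limits ID2 and ID4, with at most 15 reads a library. The cause of these changes was not tested.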
